A study of Mus musculus with 6 samples.

Results

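Imprinted genes, which are expressed mainly from the allele inherited from 1 parent, were followed in mouse oocytes with and without normal Brwd1. The set was a list of 44 genes given by name, of which 17 are known as maternally and 26 as paternally expressed. Gnas was placed in neither group, since its expressed allele depends on the transcript. The grouping is by gene, so transcripts of a grouped gene that may differ in their expressed allele were not told apart. Each gene was read from its single-symbol probe set with the highest mean over the 6 arrays, and 37 of the 44 genes had one, 14 of them maternally and 23 paternally expressed. The other 7 (H19, Snrpn, Ube3a, Kcnq1ot1, Gnas, Slc22a3 and Zrsr1) were not analysed here. In all, 19938 genes had a single-symbol probe set.

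The samples were pools of 100 oocytes at the germinal vesicle stage, the stage of arrest before the first meiotic division resumes. The 2 groups were wildtype and Brwd1 mutant mice, the mutants homozygous, both on a B6/C3H background, with 3 pools and 3 arrays each. All females were 2 to 6 months of age and had received 5 IU of equine chorionic gonadotropin 44 h before collection. The labels do not describe the lesion in Brwd1 or say which animals gave each pool, so p-values measure the spread between pools, which may be technical.

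Imprints are methylation marks on cytosine, mostly at CpG dinucleotides, laid down differently in egg and sperm and kept through the reprogramming of the embryo. Oocytes methylate the control regions of most imprinted domains while they grow, and transcripts that start upstream and run across those regions are needed for this. A fully grown oocyte therefore carries maternal marks on both of its chromosome sets, and its stored RNA includes transcripts from that growth phase. In the embryo, many paternally expressed genes promote growth and many maternally expressed genes restrain it.

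The start regions of 4 genes are shown as examples, each 250 bases before to 50 after the start in the RefSeq table of build GRCm38.p6. CpG are in capitals. Mest, at chr6:30737800-30738099 on the plus strand, has a promoter that oocytes are known to methylate. Zim1, at chr7:6696383-6696682 on the minus strand, had the largest difference of the maternally expressed genes. Tssc4, at chr7:143069118-143069417, and Slc22a18, at chr7:143473539-143473838, both on the plus strand, belong to the Kcnq1 domain and differed in opposite directions below.
Mest: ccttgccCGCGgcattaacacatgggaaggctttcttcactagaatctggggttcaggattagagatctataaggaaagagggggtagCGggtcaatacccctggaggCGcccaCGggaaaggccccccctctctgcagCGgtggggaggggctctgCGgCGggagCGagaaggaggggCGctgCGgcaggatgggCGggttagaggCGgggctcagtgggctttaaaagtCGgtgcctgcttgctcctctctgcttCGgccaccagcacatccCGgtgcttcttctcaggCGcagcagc
Zim1: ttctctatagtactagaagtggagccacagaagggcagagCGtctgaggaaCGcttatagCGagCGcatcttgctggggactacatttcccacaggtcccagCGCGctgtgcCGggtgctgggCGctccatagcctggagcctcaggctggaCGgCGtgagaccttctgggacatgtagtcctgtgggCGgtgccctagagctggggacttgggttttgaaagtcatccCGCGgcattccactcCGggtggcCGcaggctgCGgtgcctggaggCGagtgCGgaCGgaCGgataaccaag
Tssc4: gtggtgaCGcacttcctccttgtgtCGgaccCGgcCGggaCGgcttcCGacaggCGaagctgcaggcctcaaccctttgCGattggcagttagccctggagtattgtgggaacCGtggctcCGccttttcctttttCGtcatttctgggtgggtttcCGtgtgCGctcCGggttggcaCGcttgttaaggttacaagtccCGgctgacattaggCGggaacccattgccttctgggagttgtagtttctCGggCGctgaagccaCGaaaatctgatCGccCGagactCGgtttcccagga
Slc22a18: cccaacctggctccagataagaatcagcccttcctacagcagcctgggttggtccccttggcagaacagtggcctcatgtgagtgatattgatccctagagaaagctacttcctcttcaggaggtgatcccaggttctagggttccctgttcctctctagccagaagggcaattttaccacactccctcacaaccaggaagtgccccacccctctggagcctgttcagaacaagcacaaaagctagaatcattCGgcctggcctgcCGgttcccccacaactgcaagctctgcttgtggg

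The Mest start region held 17 CpG, that of Zim1 20, that of Tssc4 23 and that of Slc22a18 only 2. Methylation was not measured, and whether these counts bear on imprinting or on the differences between groups was not tested. RefSeq start regions were matched by symbol for 37 of the 44 genes, with 54 entries, since some genes have several starts. The median number of CpG per entry was 15 in the imprinted set and 7 over all 32851 entries of the table. The motif TGCCGC, the core of the sequence bound by the imprint-protecting protein ZFP57 when methylated, was searched on both strands. It was present in 14 of the 54 entries (25.93%) and in 11.61% of all entries; it contains a CpG itself, so entries rich in CpG hold it more often. Mest held 2 matches and Zim1 held 1, and neither Tssc4 nor Slc22a18 held any. A match is a description of these letters and was not related to binding.

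Brwd1, the mutated gene, was read first as a check of the labels. Its log2 level was 8.91, 9.08 and 8.98 in wildtype 1, 2 and 3 and 4.41, 4.56 and 4.50 in mutant 1, 2 and 3. As a guide to background, the 95th percentile of 1205 probe sets of olfactory and vomeronasal receptors was taken on each array and lay between 4.39 and 4.53. All 12 measured oocyte markers were above it on every array, and their mean log2 level was between 10.87 and 10.90. The groups did not overlap for 3 higher and 3 lower oocyte markers (50%), beside 19.7% of all probe sets. This share was not tested, and 0 of the 12 passed (limma). The smallest p-value was that of Kit, at -0.23 without overlap (limma, adjusted p = 0.252). Of 16 granulosa and cumulus markers 9 to 11 were above the guide per array, with a mean of 5.00 to 5.03 in wildtype and 5.02 to 5.10 in mutant arrays. Of 11 theca and stroma markers 3 were above it on each array, at a mean of 4.09 to 4.13 in wildtype and 4.15 to 4.21 in mutant arrays. Of 13 blood, immune and endothelial markers 5 to 8 were above it, at a mean of 4.66 to 4.74 in wildtype and 4.80 to 4.94 in mutant arrays. On no array above it were 5 of the 16 granulosa and cumulus markers, among them the receptor gene Fshr, 8 of the 11 theca and stroma markers, among them Cyp17a1, and 5 of the 13 blood, immune and endothelial markers, among them Ptprc of leukocytes. Above it on all 6 arrays were 7, 3 and 5 markers of these lists. The 3 of theca and stroma were the collagen genes Col1a1, Col1a2 and Col3a1. They were higher in the mutant by 0.12, 0.09 and 0.27 (limma, adjusted p = 0.379, 0.565 and 0.167), Col1a1 and Col3a1 without overlap. Nr5a2 of the granulosa and cumulus list and Pecam1 of the blood, immune and endothelial list had the highest wildtype means of their lists, 8.89 and 7.66. Over the granulosa, theca and blood lists, mutant means were higher for 11 of 16, 7 of 11 and 12 of 13 markers, beside 10665 of 19938 genes. In these lists 0 passed (limma, with 4, 1 and 3 at an unadjusted p under 0.05, beside 14.7% of all probe sets). C1qb, a complement gene of macrophages, was at 5.74, 5.76 and 6.49 in wildtype and 6.71, 6.92 and 7.06 in mutant arrays, higher by 0.90 without overlap (SE 0.21; limma, adjusted p = 0.162). The next smallest p-values of its list were those of Cd3e, C1qa and Csf1r, higher by 0.18, 0.18 and 0.19 (limma, adjusted p = 0.256, 0.316 and 0.364). Of these, Cd3e did not overlap between groups, and Csf1r was not above the guide on any array. The macrophage gene Cd68 was above the guide on all 6 arrays at a difference of -0.07, the 1 marker of this list with a lower mutant mean. Among the granulosa and cumulus markers Gata4 differed by 0.29 without overlap, Has2 by 0.49 with overlap and Ptgs2 by -0.57 without overlap (limma, adjusted p = 0.17, 0.267 and 0.252). The part of such cells in the results below was not tested. In pooled oocytes, fewer cells with a transcript and less of it per cell cannot be told apart.

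At this guide, most of the imprinted genes measured gave signal in wildtype oocytes. Of the 37 genes, 26 were above the guide in all 3 wildtype arrays, 2 in some and 9 in none; over all genes the share above it was 61.1%. The 26 comprised 11 of 14 maternally and 15 of 23 paternally expressed genes. In the mutant arrays 25 of 37 were above the guide throughout, against 61.2% of all genes, and the 25 were also above it in wildtype. The guide matters: at the 99th percentile of the receptors, between 5.54 and 5.83 per array, 14 of the 37 genes were above it in all wildtype arrays, 8 maternally and 6 paternally expressed, and 41.1% of all genes. Levels of different probe sets cannot be ranked against each other, so each gene below is compared with itself across arrays.

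**Figure D1:**
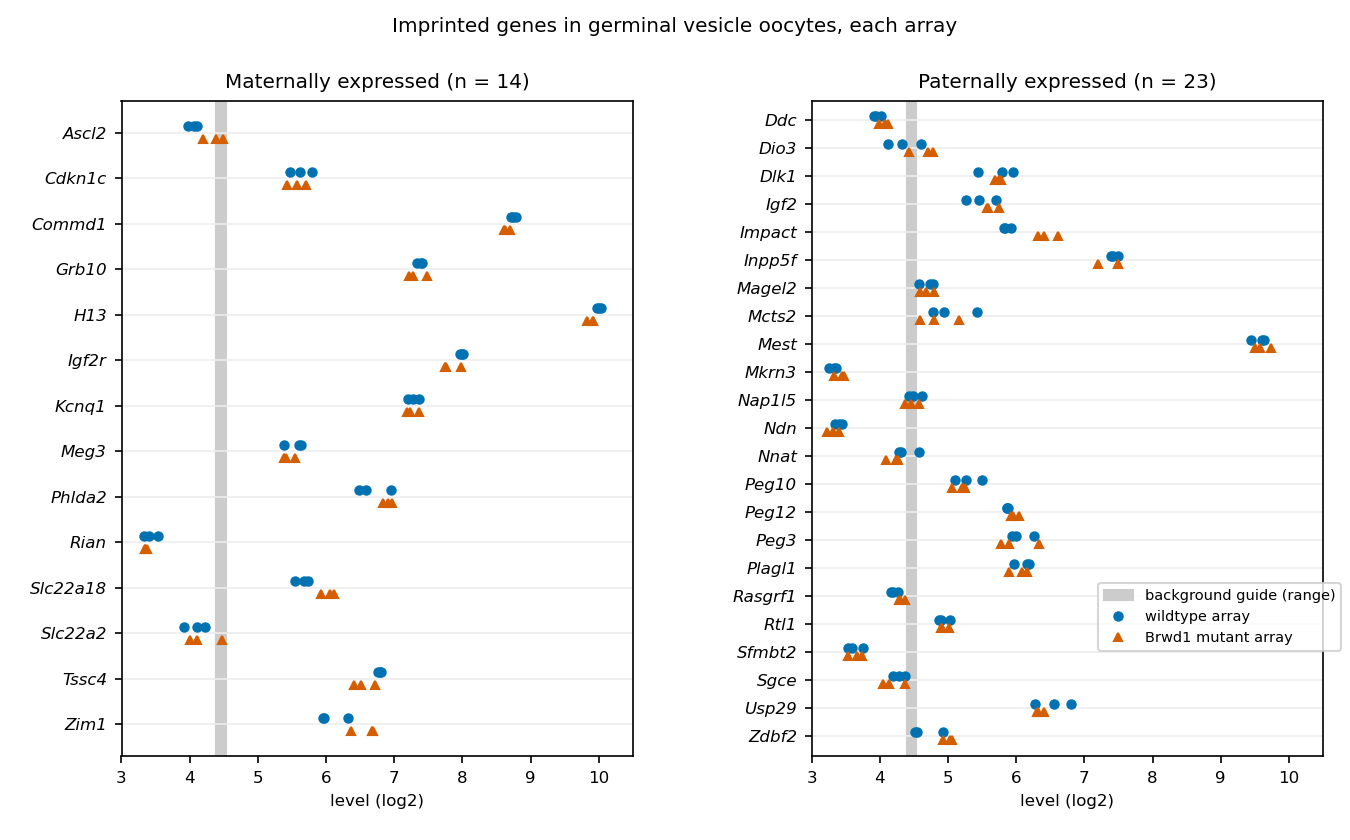
Log2 level of each measured imprinted gene on each array, with wildtype arrays as circles and Brwd1 mutant arrays as triangles; the grey band is the range over arrays of the background guide. Of the 37 genes, 26 lie above the guide in all wildtype arrays, and for most genes the circles and triangles intermingle.

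No imprinted gene passed the threshold for a difference between mutant and wildtype. With limma over all probe sets, 0 of 37 rose and 0 fell, where 0.137% of the 23410 probe sets tested passed (0.0384% higher and 0.0982% lower). At an unadjusted p under 0.05, 6 of 37 differed, 5 higher and 1 lower, beside 14.7% of all probe sets (7.3% higher and 7.4% lower). The groups did not overlap for 10 genes, 6 higher and 4 lower in the mutant, beside 19.7% of all probe sets (10.1% higher and 9.66% lower). As shares of the 37, the higher genes made 13.5% at an unadjusted p under 0.05 and 16.2% without overlap, beside 7.3% and 10.1% of all probe sets. The lower genes made 2.7% and 10.8%, beside 7.4% and 9.66%. Each of these shares rests on 1 to 6 genes. No test was made of these shares. The median log2 difference was -0.027, with 17 genes higher and 20 lower. Over all genes it was 0.013, with 10665 of 19938 higher. The split of the imprinted genes was 14 higher and 23 lower after cyclic loess and 13 higher and 24 lower after median centring. The median log2 difference was -0.058 for the maternally and 0.010 for the paternally expressed genes. At an unadjusted p under 0.05, 3 of the 14 maternally expressed genes were higher and 1 lower (28.6%). Of the 23 paternally expressed genes 2 were higher and 0 lower (8.7%). Groups did not overlap for 3 higher and 3 lower maternally expressed genes (42.9%) and for 3 higher and 1 lower paternally expressed genes (17.4%). The shares of all probe sets were 14.7% and 19.7%, and these shares were not tested either.

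The sizes were bounded by the data. Differences ran from -0.24 to 0.59 on the log2 scale, with a median absolute size of 0.10, beside 0.09 over all genes. The 95% confidence intervals of the 37 genes together spanned -0.68 to 0.81, so no interval reached a doubling or halving of the measured value. The median SD between arrays was 0.10 in wildtype and 0.10 in mutant for these genes, and 0.09 in both over all genes. The measured sizes are those of amplified RNA after RMA, which shrinks the differences of probe sets near background.

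**Figure D2:**
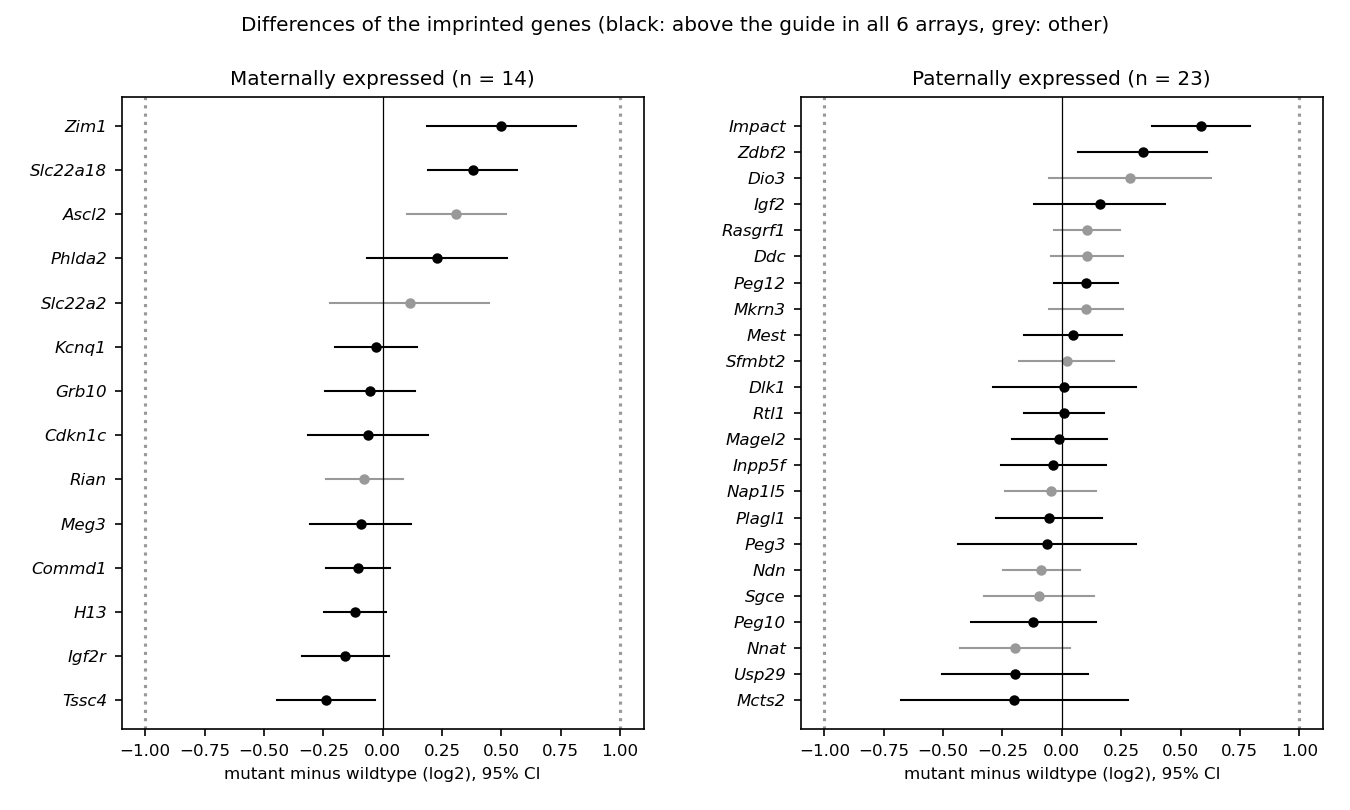
Mutant minus wildtype difference on the log2 scale with its 95% confidence interval from limma, for the 14 maternally and 23 paternally expressed genes; dotted lines mark 1 and -1. Intervals lie inside the dotted lines, and those of Impact, Zim1, Slc22a18, Zdbf2, Ascl2 and Tssc4 do not include 0.

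Impact had the largest difference of the set. It is a paternally expressed gene whose product restrains the kinase GCN2, a sensor of amino acid shortage. Its log2 level was 5.82, 5.93 and 5.83 in wildtype 1, 2 and 3 and 6.32, 6.41 and 6.61 in mutant 1, 2 and 3. Every mutant array was higher than every wildtype array. The difference was 0.59 (SE 0.087, n = 3 per group; 95% confidence interval 0.38 to 0.79), 1.5-fold, and it did not pass over all probe sets (limma, adjusted p = 0.0955). Without 1 array it ran from 0.51 to 0.65, with limma adjusted p-values from 0.118 to 0.229.

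The Peg3 domain holds Peg3 and Usp29, which share a promoter region methylated in the oocyte and are paternally expressed, and the maternally expressed zinc-finger gene Zim1. All 3 were above the guide in all 6 arrays. Zim1 was at 5.95, 5.97 and 6.32 in the wildtype arrays and at 6.68, 6.37 and 6.69 in the mutant arrays. The groups did not overlap, though wildtype 3 and mutant 2 lay within 0.05 of each other. Zim1 differed by 0.50 on the log2 scale, with an SE of 0.13 and n = 3 per group, or 1.41-fold (limma, adjusted p = 0.195). Peg3, a zinc-finger protein gene linked to growth and maternal care, was at 6.26, 5.94 and 5.99 in wildtype and 6.33, 5.77 and 5.90 in mutant arrays, a log2 difference of -0.06. Usp29, which encodes a ubiquitin-specific protease, was at 6.27, 6.80 and 6.55 in wildtype and 6.41, 6.32 and 6.30 in mutant arrays. Its difference was -0.20 (95% confidence interval -0.50 to 0.11), with overlap, and it was -0.33 without wildtype 1 and -0.067 without wildtype 2.

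In the Kcnq1 domain, Kcnq1ot1 is a long noncoding RNA that silences its neighbours on the paternal chromosome, leaving them maternally expressed. The 6 neighbours measured were Ascl2, Tssc4, Kcnq1, Cdkn1c, Slc22a18 and Phlda2, and 5 were above the guide in all 6 arrays. In the mutant 3 were higher and 3 lower, and 0 passed; Kcnq1 itself, at -0.03, was at 0.031 after quantile normalization again.

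Slc22a18, which encodes a transporter of the organic cation family, was at 5.73, 5.55 and 5.68 in wildtype and 5.92, 6.06 and 6.12 in mutant arrays. Each mutant array was higher than each wildtype array, and the difference was 0.38 on the log2 scale (SE 0.079, n = 3 per group; limma, adjusted p = 0.146), 1.30-fold. Tssc4, which takes part in assembly of the spliceosome, went the other way, from 6.76, 6.79 and 6.81 to 6.72, 6.51 and 6.41. Its groups did not overlap, with mutant 1 next to the wildtype arrays, and it differed by -0.24 on the log2 scale (SE 0.087, n = 3 per group; limma, adjusted p = 0.282).

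Ascl2, a transcription factor of the placenta, was at 4.11, 3.97 and 4.06 in wildtype and 4.20, 4.38 and 4.49 in mutant arrays. It did not overlap between groups (log2 difference 0.31, SE 0.088; limma, adjusted p = 0.213), but it was above the guide on only 1 of the 6 arrays. Phlda2, which limits growth of the placenta, was at 6.49, 6.58 and 6.96 in wildtype and 6.84, 6.91 and 6.97 in mutant arrays. Wildtype 3 lay among the mutant arrays, and the difference of 0.23 had an interval of -0.06 to 0.52; it was 0.14 without wildtype 1 and 0.37 without wildtype 3. Cdkn1c, an inhibitor of cyclin-dependent kinases, differed by -0.06 and Kcnq1, a potassium channel subunit, by -0.03, and both overlapped.

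**Figure D3:**
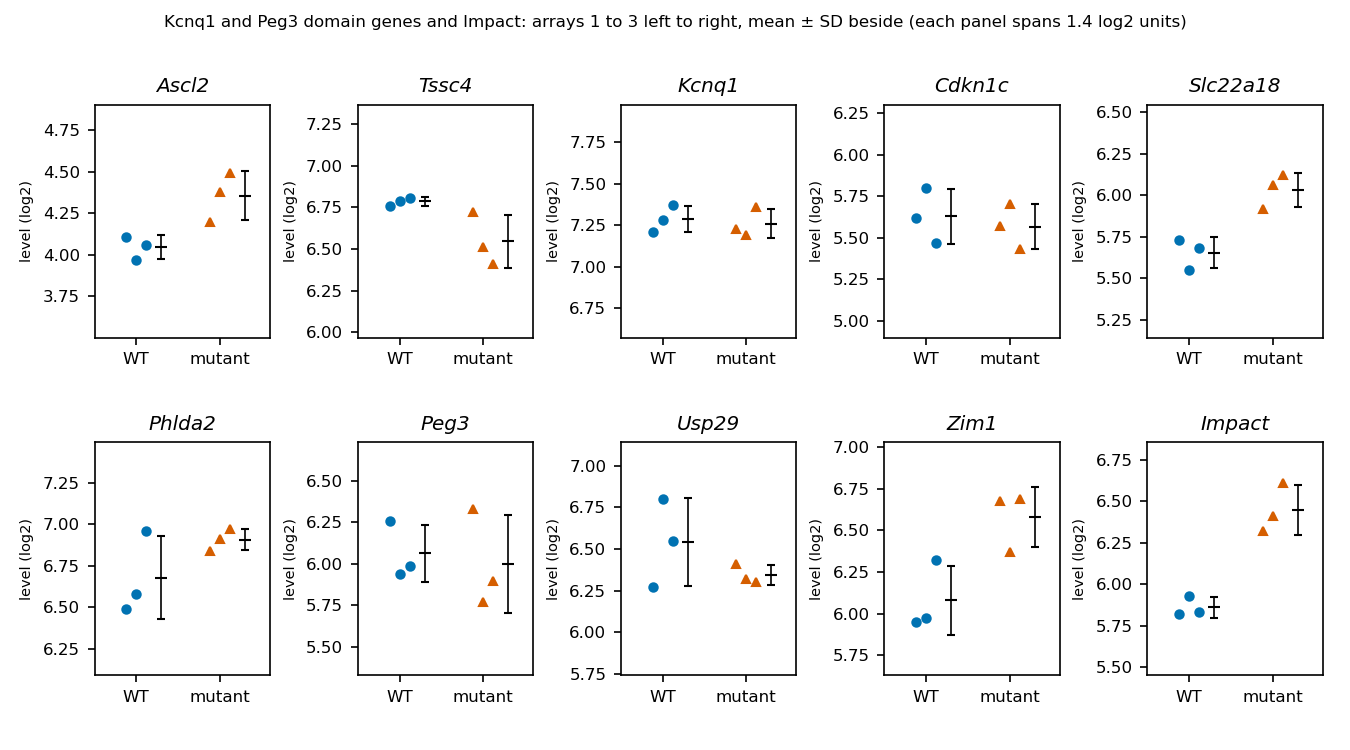
Log2 level on each array (arrays 1 to 3 from left to right within a group) of the 6 measured genes of the Kcnq1 domain, the 3 of the Peg3 domain and Impact, with the mean and SD of each group beside the points. The groups separate for Impact, Zim1, Slc22a18, Ascl2 and Tssc4 and overlap for the other 5 genes.

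Some paternally expressed genes lie inside another gene, whose transcription runs across them. By the RefSeq gene table, 5 of the 44 genes lie entirely inside another protein-coding gene: Mcts2 inside H13, Zrsr1 inside Commd1, Kcnq1ot1 inside Kcnq1, Nap1l5 inside Herc3 and Nnat inside Blcap. The 5 host genes were above the guide in all 6 arrays, with a wildtype mean log2 level of 10.00 for H13, 8.75 for Commd1, 7.29 for Kcnq1, 7.16 for Herc3 and 9.79 for Blcap. Of the 3 nested genes measured, Mcts2 was above the guide in all 6 arrays, Nap1l5 in 4 and Nnat in 1. Nesting was taken by position, with strand not compared, and whether signal of a nested gene includes RNA of its host was not tested.

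The differences of the hosts were small, and 0 of the 5 passed. H13, a signal peptide peptidase, was at 10.03, 9.97 and 10.00 in wildtype and 9.91, 9.83 and 9.91 in mutant arrays. These groups did not overlap, at -0.12 on the log2 scale (SE 0.056; limma, adjusted p = 0.391). Commd1, a regulator of copper handling and NF-kappaB, was at 8.79, 8.74 and 8.72 in wildtype and 8.70, 8.63 and 8.61 in mutant arrays, also without overlap, at -0.10 (SE 0.057; limma, adjusted p = 0.448). Herc3 differed by -0.05 and Blcap by 0.0033.

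Of the nested genes, Mcts2, an intronless relative of the translation factor gene Mcts1, had the widest spread of the set. It was at 4.78, 5.42 and 4.94 in wildtype and 4.59, 5.16 and 4.79 in mutant arrays, and its difference of -0.20 had an interval of -0.68 to 0.28. The difference was -0.013 without wildtype 2 and -0.36 without mutant 2. Mcts1 itself was above the guide on 1 array, at a wildtype mean of 4.29. Nap1l5, a relative of nucleosome assembly proteins, was at 4.49, 4.62 and 4.42 in wildtype and 4.37, 4.57 and 4.45 in mutant arrays, just at the guide. Nnat, a small membrane protein of neurons, was at 4.58, 4.28 and 4.31 in wildtype and 4.09, 4.23 and 4.26 in mutant arrays. Its groups did not overlap, but 5 of its 6 values were not above the guide (log2 difference -0.20, and -0.10 without wildtype 1; limma, adjusted p = 0.404).

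Mest, a paternally expressed gene of mesoderm and fat that encodes a hydrolase-like protein, was well above the guide in oocytes. It was at 9.63, 9.60 and 9.44 in wildtype and 9.57, 9.50 and 9.74 in mutant arrays, and the groups overlapped. The difference was 0.05 (95% confidence interval -0.16 to 0.25), and it was -0.01 after median centring. RefSeq lists 3 starts for Mest, and which of them gave the measured RNA was not tested. Copg2, a coat protein gene that partly overlaps Mest, was at 8.43, 8.43 and 8.64 in wildtype and 8.33, 8.27 and 8.17 in mutant arrays. It differed by -0.24 (SE 0.082, n = 3 per group; limma, adjusted p = 0.26), without overlap.

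The genes of the growth factor axis include Igf2, a paternally expressed growth factor, Igf2r, the maternally expressed receptor that removes it, and Grb10, a maternally expressed adaptor that dampens insulin signalling. Igf2r was at 8.01, 7.99 and 7.96 in wildtype and 7.98, 7.75 and 7.76 in mutant arrays. Mutant 1 lay within the wildtype range, and the log2 difference was -0.16 (95% confidence interval -0.34 to 0.03). Grb10 was at 7.41, 7.34 and 7.39 in wildtype and 7.28, 7.48 and 7.22 in mutant arrays, with a difference of -0.05 that became 0.0011 after quantile normalization again and ran from -0.13 without mutant 2 to 0 without mutant 3. Igf2 was at 5.46, 5.70 and 5.27 in wildtype and 5.75, 5.59 and 5.57 in mutant arrays, a difference of 0.16 with overlap, which was 0.057 without wildtype 3 and 0.27 without wildtype 2.

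Plagl1, a zinc-finger regulator of other imprinted genes, was above the guide in all 6 arrays at a difference of -0.05. Among the partners of this axis, 1 of 8 measured genes fell and 0 rose (limma), beside 0.0982% of all probe sets lower and 0.0384% higher. This list was chosen with earlier results of these data known, so its share cannot be read as a surplus over all probe sets. The 1 that fell was Igf1r, the receptor through which IGF2 acts. It was at 6.44, 6.42 and 6.38 in wildtype and 5.86, 5.68 and 5.83 in mutant arrays, well apart. It differed by -0.62 on the log2 scale (SE 0.067, n = 3 per group; limma, adjusted p = 0.0351), and the call ended without any 1 of the 6 arrays (limma, adjusted p = 0.0651 to 0.168), with the replicate block (0.158) and with all probe sets of the table tested (0.0827). Igf2bp3, which binds Igf2 messenger RNA, was at 9.14, 9.16 and 9.13 in wildtype and 8.90, 8.59 and 8.85 in mutant arrays, a difference of -0.36 (SE 0.089; limma, adjusted p = 0.177). Akt1, a kinase downstream of these receptors, and Insr, the insulin receptor gene, were above the guide on all 6 arrays at -0.07 and 0.05.

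The Dlk1-Dio3 domain carries its germline mark from the sperm. Dlk1, a ligand of the Notch family, Rtl1, derived from a retrotransposon, and Dio3, a thyroid hormone deiodinase, are paternally expressed, and the noncoding RNAs Meg3 and Rian maternally. Meg3 was at 5.61, 5.38 and 5.64 in wildtype and 5.55, 5.42 and 5.38 in mutant arrays, a difference of -0.09 that ran from -0.18 without wildtype 2 to -0.045 without wildtype 3. Rian, which lies downstream of Meg3, was not above the guide on any array, at 3.33 to 3.54. Dlk1 was at 5.79, 5.95 and 5.44 in wildtype and 5.78, 5.69 and 5.74 in mutant arrays, and Rtl1 was at 4.86 to 5.03 over all 6 arrays; both differed by 0.01, and both were at -0.057 to -0.013 after quantile normalization again, cyclic loess or median centring. In the RefSeq table Meg3 and Rian each partly overlap Rtl1 by position, with strand not compared. Whether their signals share RNA was not tested. Dio3 was above the guide on 3 of 6 arrays, at 4.32, 4.12 and 4.60 in wildtype and 4.70, 4.78 and 4.42 in mutant arrays. Its difference of 0.29 had an interval of -0.06 to 0.63, and it was 0.17 without wildtype 2 and 0.41 without wildtype 3. All 5 genes of this domain overlapped between groups.

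In the Snrpn domain, whose loss in humans underlies Prader-Willi syndrome, 2 of the 4 measured genes were above the guide. Peg12, a relative of the Wnt regulator Frat1, was at 5.86, 5.88 and 5.87 in wildtype and 5.93, 5.95 and 6.04 in mutant arrays. The groups did not overlap, at a difference of 0.10 (SE 0.057; limma, adjusted p = 0.448). Magel2, which helps recycle membrane proteins, was at 4.78, 4.74 and 4.57 in wildtype and 4.59, 4.80 and 4.67 in mutant arrays, just above the guide, with a difference of -0.01. Ndn, a protein that restrains neuronal proliferation, was at 3.22 to 3.45 and Mkrn3, a ubiquitin ligase that delays puberty, at 3.25 to 3.48, and neither was above the guide on any array.

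Zdbf2, a zinc-finger gene needed for growth after birth, was at 4.55, 4.92 and 4.52 in wildtype and 5.06, 5.03 and 4.92 in mutant arrays. Wildtype 2 matched mutant 3, so the groups met. The difference was 0.34 (SE 0.11; limma, adjusted p = 0.262), 1.27-fold. Inpp5f, an inositol phosphatase, was at 7.49, 7.39 and 7.42 in wildtype and 7.50, 7.20 and 7.49 in mutant arrays, a difference of -0.04. Peg10, a retrotransposon-derived gene of the placenta, was at 5.10, 5.27 and 5.50 in wildtype and 5.20, 5.06 and 5.25 in mutant arrays, a difference of -0.12 that was -0.015 without wildtype 3 and -0.22 without wildtype 1, and its neighbour Sgce, a sarcoglycan, was not above the guide on any array.

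The same held on every array for Rasgrf1, an exchange factor for RAS, Slc22a2, an organic cation transporter, Ddc, a decarboxylase of dopamine synthesis, and Sfmbt2, a Polycomb protein of the placenta. With Rian, Ndn, Mkrn3 and Sgce they make 8 genes without signal above the guide on any array. Rasgrf1 was at 4.17, 4.26 and 4.19 in wildtype and 4.37, 4.28 and 4.29 in mutant arrays, without overlap but below the guide throughout. Between these 8 and the 25 genes above it on all arrays stood Nap1l5, Nnat, Dio3 and Ascl2.

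All 29 measured genes of a list of imprint machinery, which set and keep imprints, were above the guide on all 6 arrays. In the mutant 0 rose and 0 fell (limma), beside 0.137% of all probe sets called, and the median difference was -0.017. Groups did not overlap for 3 higher and 5 lower genes (27.6% of the 29), Dnmt1 (lower) and Dppa3 (higher) among them, beside 19.7% of all probe sets. No test was made of this share. At an unadjusted p under 0.05, 4 of 29 (13.8%) differed, close to the 14.7% of all probe sets. These 4, Dnmt3a, Dnmt3l, Dnmt3b and Arid4b, are given with their values. Dnmt3a, the methyltransferase that writes maternal imprints, was at 9.95, 10.04 and 10.01 in wildtype and 10.29, 10.20 and 10.15 in mutant arrays. Its groups did not overlap, at 0.21 (SE 0.062; limma, adjusted p = 0.222). Its cofactor Dnmt3l was at 8.30, 8.03 and 7.97 in wildtype and 7.91, 7.81 and 7.73 in mutant arrays, lower in every mutant array, at -0.28 (SE 0.10; limma, adjusted p = 0.278), and -0.18 without wildtype 1. Dnmt3b was at 0.21 and Arid4b, which is linked to imprint control in the Snrpn domain, at 0.31 (limma, adjusted p = 0.328 and 0.262). Zfp57, which protects imprints in the embryo, differed by -0.02 (0.0066 after cyclic loess), the maintenance enzyme Dnmt1 by -0.05 and Dppa3, which shields the maternal genome from demethylation, by 0.11. Ooep and Padi6, of the maternal complex beneath the egg membrane, were at wildtype means of 12.18 and 11.88 and differed by 0.04 and -0.06.

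Of 30 other imprinted genes outside the set, 16 (53.3%) were above the guide in all 3 wildtype arrays, beside 61.1% of all genes. Of the 30, 0 rose and 0 fell (limma), 4 (13.3%) differed at an unadjusted p under 0.05, beside 14.7% of all probe sets, and the median difference was 0.032. Th, the tyrosine hydroxylase gene beside the Igf2 domain, was at 7.52, 7.41 and 7.57 in wildtype and 6.88, 6.93 and 7.12 in mutant arrays. Every mutant array was lower, by -0.52 on average (SE 0.083, n = 3 per group; limma, adjusted p = 0.112). Asb4, in the Peg10 domain, was at 7.33, 7.40 and 7.66 in wildtype and 7.91, 8.02 and 7.98 in mutant arrays. Every mutant array was higher, by 0.51 on average (SE 0.095, n = 3 per group; limma, adjusted p = 0.128). Gab1, an adaptor of receptor kinases, was at 0.33 (SE 0.11; limma, adjusted p = 0.247), and 0.22 without wildtype 2. Nap1l4, a nucleosome assembly gene of the Kcnq1 domain, had a wildtype mean of 10.07 and differed by -0.04.

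**Figure D4:**
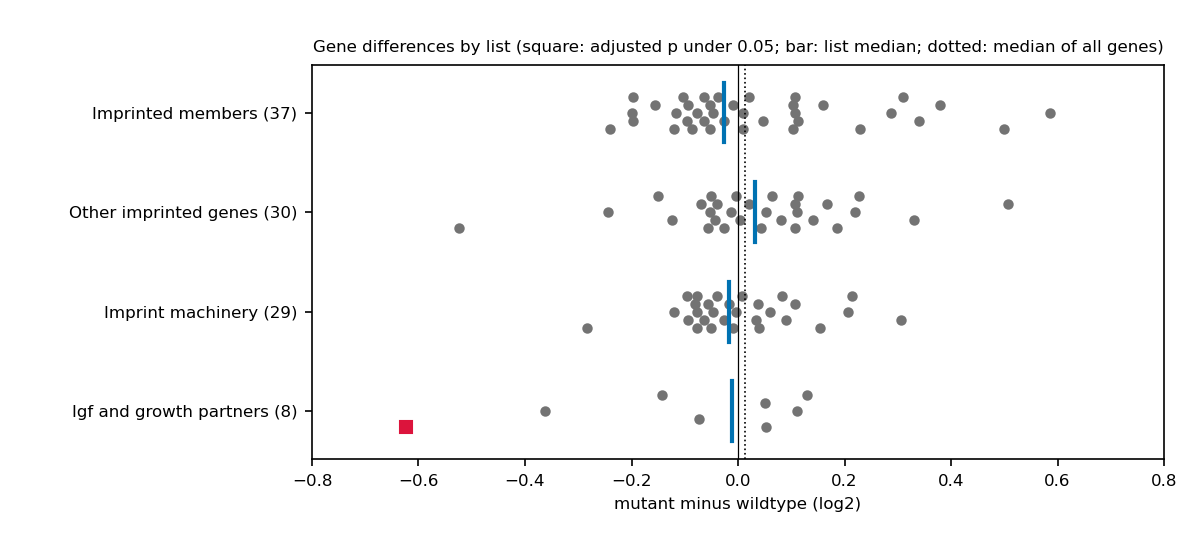
Mutant minus wildtype difference on the log2 scale for each gene of 4 lists: the 37 measured imprinted genes, 30 other imprinted genes, 29 genes of the imprint machinery and 8 partners of insulin-like growth factor signalling. Bars mark list medians, the dotted line marks the median of all genes at 0.013, and the 1 square is Igf1r at -0.62.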

How the data were processed

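RNA of 6 pools of 100 oocytes was isolated with a Qiagen RNeasy Micro kit, 1 ng was amplified and labelled with biotin using NuGEN kits, and each pool was hybridised to 1 Affymetrix mouse Gene ST array in 1 colour, per the labels' protocols. The deposited values are log2 levels per probe set, made with Affymetrix Expression Console 1.1 and RMA per the submitters' processing notes. No source used here gives the genome build of the array. RMA equalises the distributions of the arrays, so a change in total RNA per oocyte cannot be seen.

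Of 35556 probe sets, 21789 had exactly 1 symbol, 1621 had several and 12146 had none listed; of the first kind, 21698 matched the RefSeq table of GRCm38.p6 by gene identifier, with 0 differing symbols. All 23410 probe sets with a symbol entered a two-sided limma fit (version 3.58.1, R 4.3.3; lmFit, then eBayes, with no covariates and no filter on level), with Benjamini-Hochberg adjustment over all of them and a threshold of 0.05. SE and 95% confidence intervals are from that fit, and their precision is limited by 3 arrays per group. The imprinted set and the lists beside it were chosen with earlier results of these data known. Genes named were all measured members and Brwd1. Others were drawn from the hosts and parents of nested genes, and from each other list up to 4 genes with the smallest p-values and up to 4 with the highest wildtype levels. Some genes within this rule, such as Nap1l1, Irs1 and Amhr2, are not described. Dppa3, Airn, Xist, Slc38a4, Smoc1, Fshr, Cyp17a1 and Ptprc fall outside that rule and were chosen after their values were seen. Tested on simulated data for this comparison (23410 probe sets, 5 runs of 200 changed), the fit recovered 50.0% of log2 differences of 0.5, 87.2% of 1, 95.6% of 2 and 100% of 4, and 3.68% of calls were false. The 200 changes were split evenly over these 4 sizes. Many large changes make the adjusted threshold easier to pass. In the real data only 32 probe sets were called, so recovery of differences near 0.5 may be lower there than in the simulation. Alternatives were a replicate block, a filter on dim probe sets, other normalizations, other eBayes settings, all probe sets, the mean of a gene's probe sets, other guides and leaving out each array.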

Additional observations from a re-analysis of the deposited data

How the results depend on the processing

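The count of imprinted genes called was 0 in every alternative run, with the smallest limma adjusted p between 0.0823 and 0.229 and, except without wildtype 2, always that of Impact. Over all probe sets the count of 32 fell to 1 with the replicate block and to 1 with all probe sets of the table tested, rose to 76 with trend and robust eBayes, and ran from 1 to 18 when 1 array was left out. The replicate numbers were not taken as pairs in the main fit. Deviations of same-numbered arrays correlated at -0.0015, -0.031 and 0.036, and those of other pairs at -0.048 to 0.057. With 3 arrays per group, these values cannot settle whether the arrays were paired. With the block 0 imprinted genes were called, as without it, and Igf1r no longer passed (limma, adjusted p = 0.158), nor did it with all probe sets (0.0827). The count above background of 26 became 14 with the 99th percentile guide and ended within 1.5 times of it in the other settings. Small differences changed sign. With quantile normalization again, Grb10 was at 0.0011, Kcnq1 at 0.031, Dlk1 at -0.013, Rtl1 at -0.048, Inpp5f at 0.022, Sfmbt2 at -0.0078 and Herc3 at 0.0006. With cyclic loess, Dlk1 was at -0.025, Rtl1 at -0.057, Sfmbt2 at -0.0088 and Zfp57 at 0.0066. With median centring, under which the median over all probe sets tested went from 0.010 to -0.047, Mest was at -0.01, Dlk1 at -0.047, Rtl1 at -0.047, Sfmbt2 at -0.037 and Blcap at -0.053, and the median of the imprinted genes moved to -0.083. When 1 array was left out, differences ran from -0.2283 to 0.0517 for Peg3, -0.0733 to 0.0383 for Magel2, -0.03 to 0.06 for Rtl1, -0.1433 to 0.0217 for Cdkn1c, -0.1 to 0.0083 for Nap1l5, -0.015 to 0.0233 for Blcap, -0.0217 to 0.0983 for Mest, -0.0767 to 0.015 for Kcnq1, -0.1333 to 0.1217 for Dlk1, -0.0283 to 0.0833 for Sfmbt2, -0.1233 to 0.02 for Plagl1, -0.0283 to 0.2117 for Slc22a2 and -0.0883 to 0.0617 for Inpp5f; for 12 further imprinted genes the sign did not reverse but the size moved by over 1.5 times, among them Ndn (-0.1317 to -0.0417), Rian (-0.125 to -0.02) and Sgce (-0.19 to -0.03), which lie below the guide, and the median of the imprinted genes ran from -0.0283 to 0.0117. The cause of these changes was not tested.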

Other observations

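None of the 44 imprinted genes lies on the chromosome of Brwd1 in the RefSeq table, so none is among the genes that flank the mutation. Xist, the noncoding RNA that silences an X chromosome and is itself imprinted in the mouse placenta, was not above the guide on any array, at a wildtype mean of 3.13 and a mutant mean of 3.24. Airn, the antisense RNA that silences the Igf2r domain on the paternal chromosome, had a wildtype mean of 4.91 and a mutant mean of 5.05, above the guide on all 6 arrays. Slc38a4 and Smoc1, whose imprinting, like that of Sfmbt2 and Gab1, has been linked to histone marks of the oocyte, had wildtype means of 3.82 and 4.18. Gab1 was at 5.50. No wildtype array stood apart over the 37 measured imprinted genes: wildtype 1, 2 and 3 were the highest of the 3 for 12, 14 and 11 genes and the lowest for 12, 13 and 12.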
